A study of Arabidopsis thaliana with 23 samples.

Results

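Plastid-encoded transcripts were taken as all rows of the mRNA table whose identifier (ID) starts with ATCG, and 88 of 27655 genes met that rule. Values came from 11 mRNA libraries of whole Arabidopsis thaliana seedlings that had spent 2 days in the cold and 10 days at 22 °C in continuous light on MS with 3% sucrose. Seedlings carrying the sos2-2 mutation were treated in liquid MS with 100 mM NaCl for 12 hours (3 libraries) or kept on MS (2 libraries). Wild-type (WT) seedlings, named gl1 in the design text, had the same salt treatment (3 libraries) or MS (3 libraries). Whether MS plants went through a change to liquid medium is not stated, and neither is the origin of replicates, so every p-value rests on the scatter among libraries, part or all of which may be technical. SOS2 encodes a protein kinase of the salt overly sensitive pathway. Its own transcript was between 0.818 and 1.36 transcripts per 1000000 (TPM) in sos2-2 libraries and between 0.880 and 1.25 TPM in WT libraries, so its level does not separate the genotypes and does not check the labels.

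The plastid genome of plants codes for core subunits of the photosystems, the cytochrome complex, the ATP synthase and the NAD(P)H dehydrogenase-like (NDH) complex, for the large subunit of Rubisco, for ribosomal proteins and for subunits of a bacterial-type RNA polymerase. That polymerase works with sigma factors encoded in the nucleus, and nuclear-encoded phage-type polymerases transcribe part of the plastid genome as well. Many plastid genes lie in clusters that are transcribed together and are then cut and trimmed into separate messages by nuclear-encoded RNA-binding proteins and nucleases. An inverted repeat carries a pair of copies of some genes.

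The deposited table gives no gene names, and RefSeq's TAIR10.1 annotation lists the plastid genes under other tags. Notes on nuclear relatives in that annotation cite a few of the ATCG IDs, and 1 more ID had the same value as one of these in every library. In all 7 IDs are described here by a gene name, and others by ID alone. ATCG00420 is ndhJ and ATCG00430 is ndhK, both subunits of the NDH complex, which carries electrons around photosystem I. The annotation citing ATCG00430 uses an older label, photosystem II reaction center protein G, and the name ndhK was taken from the best plastid match of the nuclear protein so annotated (47.6% identity). ATCG00660 is rpl20 and ATCG00830 and ATCG01310 are rpl2, proteins of the large ribosomal subunit. ATCG00670 is clpP, a subunit of the Clp protease of the stroma, and ATCG00530 is cemA, a protein of the chloroplast envelope.

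Pairs of IDs with equal values cannot be measured apart. In 7 pairs of members the values were equal in every library, among them ATCG00830 and ATCG01310. RefSeq lists 7 plastid gene names at 2 places, 6 of them with identical coding sequence at both. Of the equal-valued pairs only that of rpl2 was matched to a gene here. For that pair the opening of the coding sequence is shown (RefSeq TAIR10.1, 5′ to 3′ on the coding strand, at Pltd:85784-85843 on the minus strand and at Pltd:152806-152865 on the plus strand), and both copies read the same there:
rpl2 on the minus strand: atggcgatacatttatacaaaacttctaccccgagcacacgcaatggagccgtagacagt
rpl2 on the plus strand: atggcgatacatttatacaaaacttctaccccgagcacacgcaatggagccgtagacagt
Where the results below count IDs, both members of a pair are counted.

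ndhJ also has a diverged nuclear copy. The annotated pseudogene AT4G13285 on chromosome 4 aligns with ndhJ over 169 positions with 17 mismatches and 3 gap positions (88.2% identity). The first 90 aligned bases before a gap are shown because ndhJ is a member on which the results turn, with capitals at the 8 positions where the sequences differ (RefSeq TAIR10.1, Pltd:48969-49058 on the minus strand and chr4:7738696-7738785 on the plus strand):
ndhJ: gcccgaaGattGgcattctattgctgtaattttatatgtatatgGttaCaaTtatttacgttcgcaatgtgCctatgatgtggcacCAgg
AT4G13285: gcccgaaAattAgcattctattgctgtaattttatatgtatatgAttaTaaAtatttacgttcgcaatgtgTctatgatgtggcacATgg
AT4G13285 has no row in the deposited table, so it had no value of its own beside ndhJ there.

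Plastid-encoded transcripts made up most of every library, and ATCG00630 held the largest mean share of all TPM among them. They held 68.0, 69.8 and 65.9% of all TPM in sos2-2 in NaCl and 68.6 and 72.9% in sos2-2 on MS. The share was 71.5, 74.2 and 79.3% in WT in NaCl and 65.4, 71.5 and 67.9% in WT on MS. All groups overlapped except WT NaCl against sos2-2 NaCl, where the lowest WT library lay above the highest sos2-2 library. ATCG00630 alone held 20.6, 15.6 and 10.7% of all TPM in sos2-2 in NaCl and 19.6 and 27.3% in sos2-2 on MS. In WT it held 16.3, 29.4 and 45.0% in NaCl, against 16.7, 14.1 and 17.0% on MS. The third WT NaCl library, at 45.0%, thus stood apart from the others, and the next were the second WT NaCl library and the second sos2-2 MS library.

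With ATCG00630 left out of the summed members but not of the total, the group means turned order in all 4 comparisons. The other 87 members held 47.4, 54.1 and 55.1% of all TPM in sos2-2 NaCl libraries and 55.1, 44.8 and 34.3% in WT NaCl libraries, and the groups overlapped. On MS they held 49.0 and 45.7% in sos2-2 and 48.8, 57.4 and 51.0% in WT. TPM divides reads by transcript length and then fixes the total at 1000000, so a gain of ATCG00630 lowers every other value in that library. With ATCG00630 left out of both sums, the group means were 61.9% in sos2-2 NaCl and 61.9% in sos2-2 MS. They were 63.9% in WT NaCl and 62.2% in WT MS. WT NaCl then stayed above WT MS and above sos2-2 NaCl, so the turn did not hold for those comparisons. RefSeq lists 85 plastid coding genes from 90 to 6885 bases long, 13 of them of at most 150 bases, and very short transcripts get the largest TPM for a given number of reads. The length used for ATCG00630 in the deposited table was not analysed here.

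**Figure D1:**
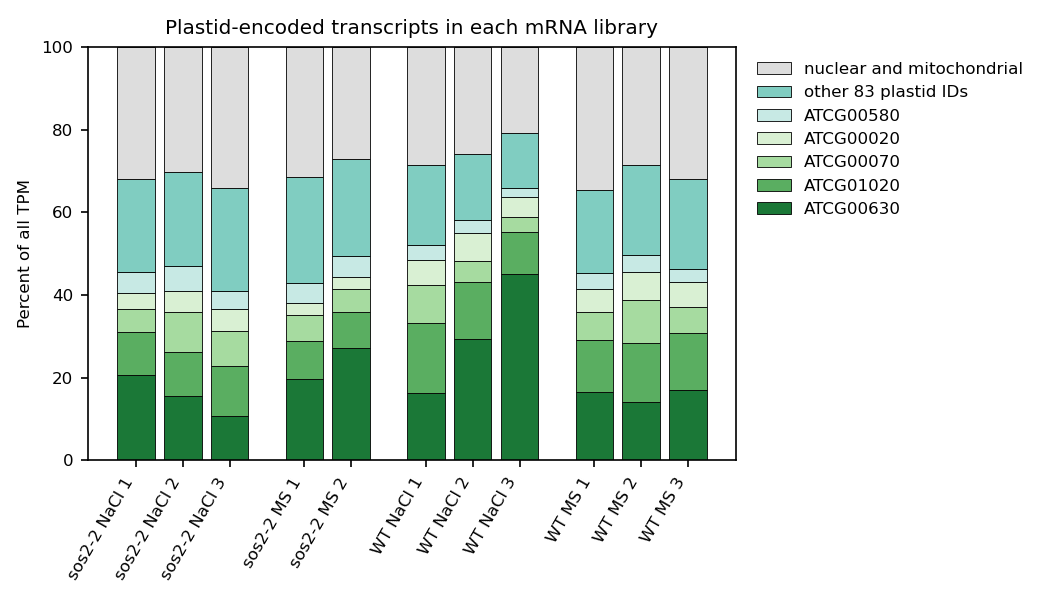
Percent of all TPM (y axis) in each mRNA library (x axis, by group and replicate number) held by the 5 plastid IDs with the highest mean TPM, by the other 83 plastid IDs and by nuclear and mitochondrial transcripts. ATCG00630 ranges from 10.7% in the third sos2-2 NaCl library to 45.0% in the third WT NaCl library.

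Levels within the plastid set spanned more than 3 orders of magnitude of TPM. After ATCG00630, with a mean of 211212 TPM over all libraries, came ATCG01020 (120985 TPM), ATCG00070 (69358 TPM), ATCG00020 (51329 TPM) and ATCG00580 (41236 TPM). These 5 IDs held 62.3 to 83.2% of the plastid total, and between 1 and 4 IDs were enough for 50% of it in any library. The median member had a mean of 1653 TPM, against 5.11 TPM for the median nuclear gene tested, and the lowest, ATCG00590, had 92.5 TPM. TPM is per length, and the lengths used were not analysed, so the order of IDs is only that of the deposited values. Neighbours in the order whose ranges over libraries overlap are not distinguished. Among the named members the order of mean level was rpl20 (7635 TPM), ndhJ (3274 TPM), clpP (2401 TPM), rpl2 (1742 TPM for each ID), ndhK (1328 TPM) and cemA (365.0 TPM). Since both rpl2 IDs cannot be measured apart, that place of rpl2 is for a single ID and not for both copies together. The ratio of the highest to the lowest library had a median of 2.38 over the members. It was smallest for ATCG00065 (1.51) and largest for ATCG01000 (11.04), with ATCG01000 at 31.2 TPM in the third WT NaCl library and 344 TPM in the second WT MS library.

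All 88 members passed the filter of a mean of at least 1 TPM. Changes were tested with limma on log2(TPM + 1) over the 16564 genes that passed, with Benjamini-Hochberg adjustment over all of them, and on log2(share + 1), where the share is per 1000000 of the total of the gene's own genome. A log2 change on either scale slightly understates the change of low genes. Because scaling matters so much here, each count of members called at an adjusted p under 0.05 was also taken after 5 other scalings: TPM centred on the median gene, TPM set to a common nuclear total, shares centred on the median of each genome, and TPM or shares with ATCG00630 left out of the total, which was chosen after its values were seen. The median gene itself shifted on the log2 TPM scale by 0.16 for salt in sos2-2, -0.21 for salt in WT, 0.32 for sos2-2 against WT in NaCl, -0.05 on MS and 0.39 in the interaction. Log2 changes on the TPM scale are given relative to that shift unless a range over the 7 scalings is named, and their adjusted p-values come from the TPM as deposited.

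**Figure D2:**
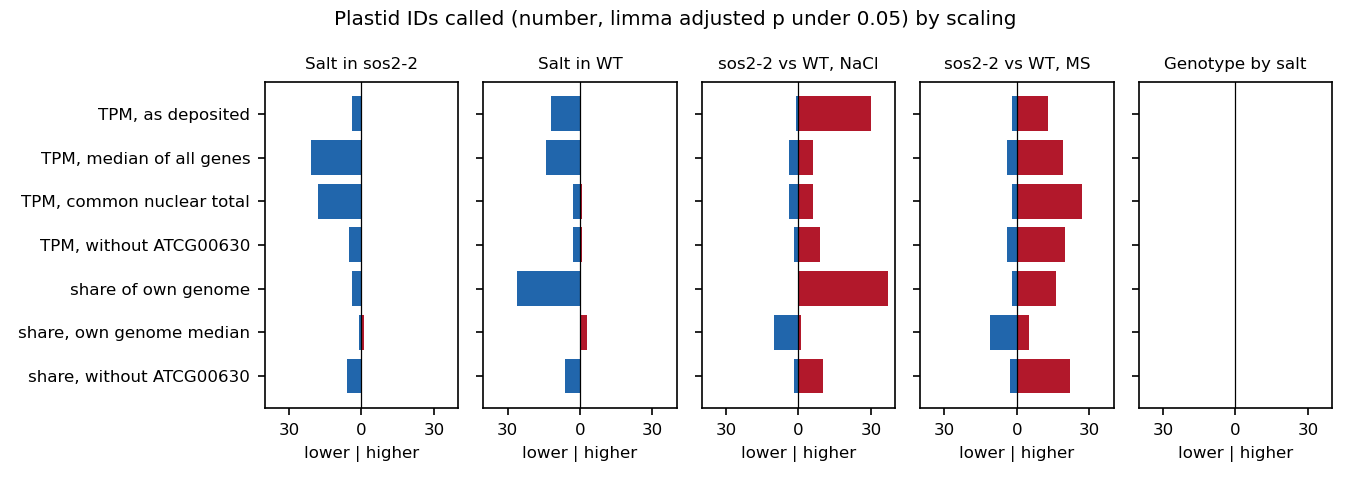
Number of plastid IDs called at a limma adjusted p under 0.05 (x axis, lower to the left and higher to the right) under each of the 7 scalings (y axis) in the 5 contrasts. The counts for sos2-2 against WT in NaCl go from 37 higher and 0 lower by share to 1 higher and 10 lower with each genome centred on its own median, and no ID was called in the genotype by salt contrast.

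The genotypes were first compared in plants without salt. On MS, 13 plastid IDs were higher and 2 lower in sos2-2 than in WT by TPM, 15 of 88 in all or 17.0%, against 2.79% of all genes called in either direction. By share, 16 were higher and 2 lower (9.86% of all genes), and with each genome centred on its own median 5 were higher and 11 lower (10.5% of all genes). Centred on the median gene 19 were higher and 4 lower by TPM (10.3% of all genes), with a common nuclear total 27 and 2 (10.1% of all genes), and with ATCG00630 left out 20 and 4 by TPM (3.55% of all genes) and 22 and 3 by share (10.0% of all genes). The share of members called thus lay above that of all genes in each of the 7 scalings, at 17.0 to 33.0%. The median log2 change of the members was 0.21 before centring and that of all genes -0.05. Under all 7 scalings, 5 IDs were called higher and 2 lower. Without the filter on low values 0 IDs were called by TPM (32 at an unadjusted p under 0.05) and 12 by share. sos2-2 on MS has only 2 libraries, and without its first library 1 ID was called by TPM and 1 by share, and without its second none by either. Leaving out a WT MS library also cut the TPM count, to 7, 3 and 5 without the first, the second and the third, and the share count to 11, 9 and 3. Leaving out the first WT NaCl library, which enters only through the shared estimate of spread, raised the TPM count to 27.

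ATCG00560 was the ID whose call on MS held most often. It was at 9636 and 12169 TPM in sos2-2 on MS, against 3823, 4009 and 4405 TPM in WT on MS. In NaCl it was at 10036, 9911 and 7798 TPM in sos2-2, against 4079, 4304 and 4923.5 TPM in WT. Every sos2-2 library lay above every WT library. On MS the log2 change was between 1.08 and 1.55 over the 7 scalings (limma adjusted p between 0.0045 and 0.028), and among the 11 libraries left out in turn only the second sos2-2 MS library ended the call (adjusted p = 0.12 by TPM). Without the filter on low values it was called by share (adjusted p = 0.015) and not by TPM (adjusted p = 0.077).

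Among IDs called on MS by TPM, ATCG00160 had the largest log2 change. It was at 1212 and 1107 TPM in sos2-2, against 458, 384 and 409 TPM in WT, with no overlap. Its log2 change was 1.15 to 1.62 over the 7 scalings (limma adjusted p between 0.010 and 0.041), and by TPM the call was lost without either sos2-2 MS library. The next 3 IDs in number were called higher with it by TPM: the relative log2 change was 1.40 ± 0.26 for ATCG00170 (SE, limma adjusted p = 0.016), 1.37 ± 0.26 for ATCG00180 (adjusted p = 0.019) and 1.09 ± 0.26 for ATCG00190 (adjusted p = 0.045). None of these 3 was called with each genome centred on its own median. In NaCl ATCG00160 was at 861, 513 and 541 TPM in sos2-2, against 331, 496 and 464 TPM in WT, and it and ATCG00180 were above WT in each sos2-2 library, while ATCG00170 and ATCG00190 overlapped. None of the 4 was called there by TPM or by share. In sos2-2 the 4 IDs were each lower in every NaCl library than in both MS libraries.

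The 2 IDs called lower on MS under all scalings were ATCG00020 and ndhJ. ATCG00020 was at 30845 and 28867 TPM in sos2-2, against 55110, 68197 and 61136 TPM in WT (log2 change between -1.36 and -0.89 over the 7 scalings, limma adjusted p between 0.0067 and 0.028). By TPM that call was lost without either sos2-2 MS library or the second WT MS library. In NaCl its groups overlapped, at 38011, 52096 and 51945 TPM in sos2-2 and 61615, 68839 and 47963 TPM in WT. ndhJ was at 2638 and 2554 TPM in sos2-2 on MS, against 4665, 4701 and 4811 TPM in WT on MS, with no overlap. Its log2 change was between -1.19 and -0.72 (limma adjusted p between 0.0057 and 0.045). By TPM the ndhJ call was lost without either sos2-2 MS library, without any one WT MS library and without the second WT NaCl library.

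The other named members did not pass on MS. rpl20 was at 10780 and 9900.3 TPM in sos2-2 and at 7906, 6168 and 7343 TPM in WT (limma adjusted p = 0.19). rpl2 was at 2417 and 2302 TPM in sos2-2 and at 1861, 1434 and 1917 TPM in WT (limma adjusted p = 0.26). Both stood above WT in each sos2-2 library, as ndhK did. For clpP and cemA the genotypes overlapped on MS.

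**Figure D3:**
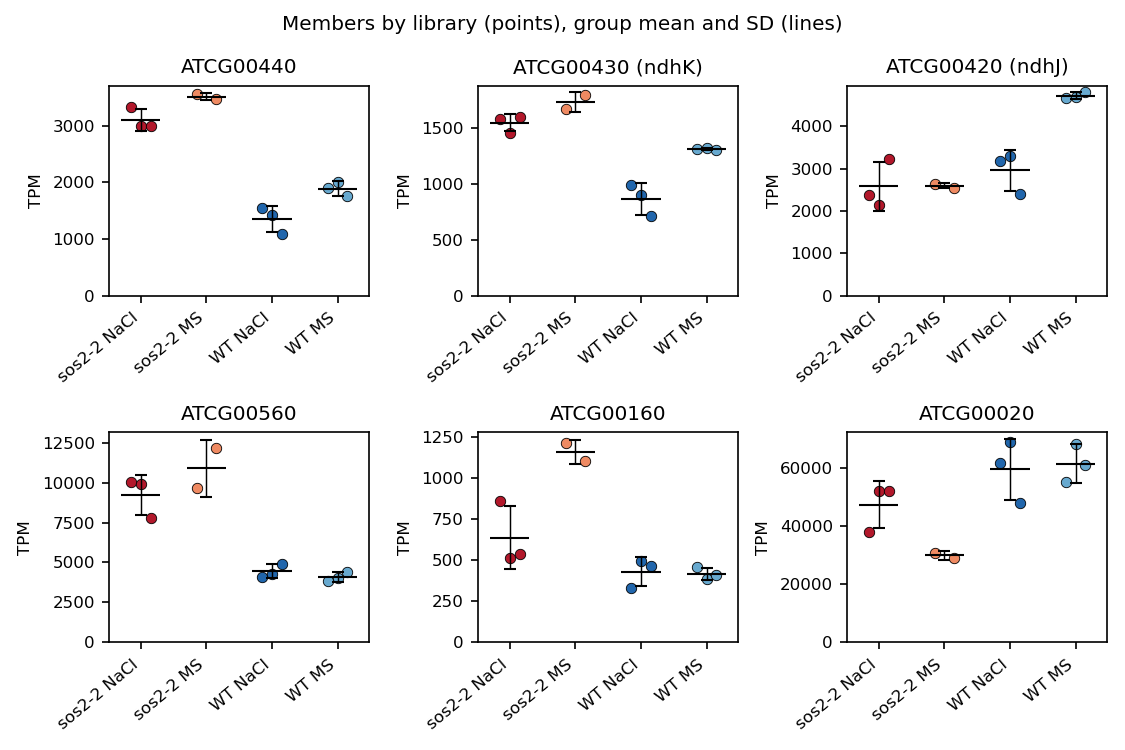
TPM (y axis) of ATCG00440, ndhK, ndhJ, ATCG00560, ATCG00160 and ATCG00020 in every library, by group (x axis); horizontal lines are group means and bars are SD (n = 3, and n = 2 for sos2-2 MS). ATCG00440 and ATCG00560 are higher in every sos2-2 library than in every WT library, and ndhJ and ATCG00020 are below WT in both sos2-2 MS libraries and overlap with WT in NaCl.

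In NaCl, where the genotypes were compared under salt, the number of plastid IDs called depended on the scaling. By TPM 30 were higher and 1 lower in sos2-2 (19.3% of all genes called), and by share 37 were higher and 0 lower (10.3% of all genes called). With TPM centred on the median gene 6 were higher and 4 lower (10.6% of all genes called), and with a common nuclear total also 6 and 4 (10.2%). With ATCG00630 left out of the total 9 were higher and 2 lower by TPM (7.89% of all genes called) and 10 and 2 by share (9.98% of all genes called). With each genome centred on its own median 1 was higher and 10 were lower (10.6% of all genes called). The members' percentage was 35.2 by TPM and 42.0 by share, above all genes, and 11.4 to 13.8 in the other 5 scalings, near that of all genes except with ATCG00630 left out of the TPM total (12.6). The single ID called lower by TPM was ATCG00630 itself, whose groups overlapped, at 206445, 156123 and 107212 TPM in sos2-2 and 163441, 293854 and 449826 TPM in WT (relative log2 change -1.20 ± 0.28, SE, limma adjusted p = 0.036), and it was not called with TPM centred on the median gene (adjusted p = 0.075). The TPM count was 16 without the second WT NaCl library, 13 without the third, 15 without the third sos2-2 NaCl library and 51 without the first WT NaCl library. The share count fell to 15 and 16 without the second and the third WT NaCl libraries, was 19, 22 and 18 without the first, the second and the third sos2-2 NaCl libraries, 24 without either sos2-2 MS library and 24 without the third WT MS library, and reached 63 without the first WT NaCl library.

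ATCG00440 was the member whose difference between the genotypes was called most consistently. In NaCl it was at 3327, 2992 and 2997 TPM in sos2-2, against 1543, 1429 and 1089.7 TPM in WT. On MS it was at 3556 and 3468 TPM in sos2-2, against 1904, 2009 and 1752 TPM in WT. The lowest of the 5 sos2-2 libraries lay above the highest of the 6 WT libraries. In NaCl the log2 change was between 0.50 and 1.35 over the 7 scalings (limma adjusted p between 3.6e-04 and 0.042), it was the only ID called under all 7 there, and it was also called by TPM and by share with each of the 11 libraries left out in turn and without the filter on low values. On MS the log2 change was between 0.57 and 1.04 (limma adjusted p between 0.0079 and 0.042), and by TPM that call was lost without any one of the MS libraries.

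ndhK, the ID just before it in number, was higher in sos2-2 in NaCl as well, at 1580.3, 1455 and 1597 TPM, against 985, 903 and 707 TPM in WT (relative log2 change 0.53 ± 0.19, SE, limma adjusted p = 0.0060). The groups did not overlap, and the call was kept with any one library left out, but not with each genome centred on its own median (adjusted p = 0.53). ATCG00510 had the largest log2 change among IDs called by TPM in NaCl, at 10049.7, 17940 and 22080 TPM in sos2-2 and 8952, 3678 and 4284 TPM in WT (relative log2 change 1.29 ± 0.39, SE, limma adjusted p = 0.0099). That call was lost without the third WT NaCl library (adjusted p = 0.069) and with TPM centred on the median gene (adjusted p = 0.087). rpl2 was called higher by share (log2 change 0.70 ± 0.18, SE, limma adjusted p = 0.035) and not by TPM (adjusted p = 0.056), while rpl20, clpP, cemA and ndhJ were called on neither scale.

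The level of ndhJ relative to that of ndhK differed between the genotypes, and as a ratio within each library it does not depend on any scaling. The genes lie next to each other on the minus strand, ndhJ at Pltd:48677-49153 and ndhK at Pltd:49257-49934 (RefSeq TAIR10.1). ndhJ over ndhK was 1.501, 1.48 and 2.03 in sos2-2 in NaCl, against 3.22, 3.66 and 3.40 in WT in NaCl. On MS it was 1.59 and 1.43 in sos2-2, against 3.57, 3.56 and 3.69 in WT. Every sos2-2 library was below every WT library, and the ratio of the group means was 0.418 on MS and 0.487 in NaCl. The pair was chosen after the values were seen, so no test was made. Of the 3240 ratios between the 81 members that are not equal-valued copies, 504 (15.6%) separated all sos2-2 from all WT libraries, and 19 (0.586%) did so by a gap at least as wide as that of ndhJ over ndhK. Within each genotype the NaCl and MS libraries overlapped in this ratio, with means of 1.67 ± 0.31 in NaCl and 1.51 ± 0.11 on MS in sos2-2 (SD, n = 3 and n = 2), and of 3.43 ± 0.22 in NaCl and 3.61 ± 0.07 on MS in WT (SD, n = 3 each).

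**Figure D4:**
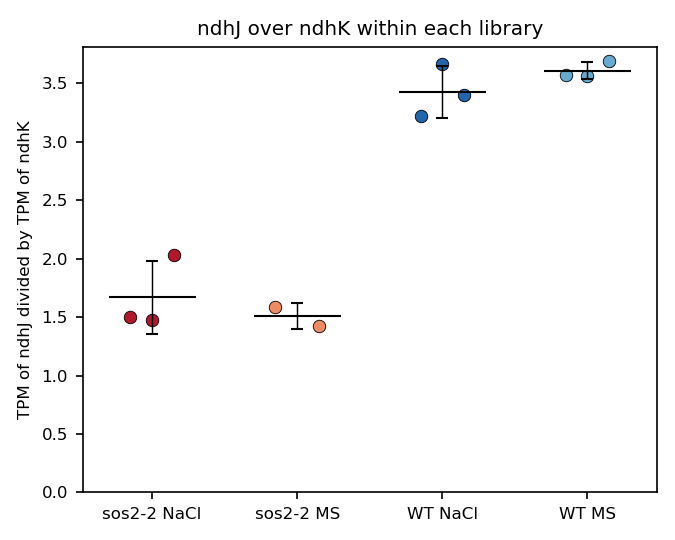
TPM of ndhJ divided by TPM of ndhK (y axis) in each library, by group (x axis), with group means and SD. The 5 sos2-2 libraries lie between 1.43 and 2.03 and the 6 WT libraries between 3.22 and 3.69.

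For salt in sos2-2 few plastid IDs were called lower and none higher by TPM or by share. That was a smaller percentage than of all genes. By TPM 4 IDs were lower in NaCl than on MS (6.59% of all genes called), by share 4 (8.56% of all genes called), and with TPM centred on the median gene 21 were lower and 0 higher (8.82% of all genes called). With a common nuclear total 18 were lower (8.92% of all genes called), with ATCG00630 left out 5 by TPM (6.61%) and 6 by share (8.59%), and with each genome centred on its own median 1 was lower and 1 higher (8.46%). By TPM and by share 4.55% of the members were called, fewer than of all genes, and 23.9% with TPM centred on the median gene. The largest changes by TPM were those of ATCG00170, at 170, 111 and 113 TPM in NaCl and 254 and 229 TPM on MS (relative log2 change -1.06 ± 0.26, SE, limma adjusted p = 0.042), and of ATCG00160, at the levels given above (relative log2 change -1.06 ± 0.26, SE, adjusted p = 0.043). Neither was called with ATCG00630 left out of the total (adjusted p = 0.062 and 0.064 by TPM). The TPM count was 0 without either sos2-2 MS library, without the second or the third sos2-2 NaCl library and without the third WT MS library, 1 or 2 without the first or second WT MS library, 1 without the second WT NaCl library and 6 without the first or the third WT NaCl library. The share count was 0 without either sos2-2 MS library, 1 without the second sos2-2 NaCl library and 2 without the third, and 2 without the first or the third WT MS library or the second WT NaCl library. None of the named members was called on either scale, ndhJ being at 2373, 2149 and 3238.5 TPM in NaCl and 2638 and 2554 TPM on MS.

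For salt in WT plastid IDs were also called lower by TPM and by share, and the count depended on ATCG00630. With each genome centred on its own median none was called lower. By TPM 12 IDs were lower and 0 higher in NaCl than on MS (9.41% of all genes called), and by share 26 were lower and 0 higher (9.78% of all genes called). Centred on the median gene 14 were lower by TPM (10.2% of all genes called), and with a common nuclear total 3 were lower and 1 higher (9.39%). With ATCG00630 left out of the total 3 were lower and 1 higher by TPM (6.47% of all genes called) and 6 lower by share (9.62% of all genes called). With each genome centred on its own median 0 were lower and 3 higher (10.5% of all genes called). Of the members 13.6% were called by TPM and 29.5% by share, and 3.41 to 15.9% under the other scalings. Without the first WT NaCl library 48 IDs were called by TPM and 55 by share. Without the second 1 and 4 were called, and without the third 1 and 3. The TPM count was 2, 7 and 2 without the first, the second and the third WT MS library, 6 without either sos2-2 MS library, 8 without the second and 7 without the third sos2-2 NaCl library. The share count was 3, 10 and 3 without the WT MS libraries, 16 without either sos2-2 MS library and 12 without the third sos2-2 NaCl library.

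ATCG01000 had the largest fall in WT, at 163, 69.5 and 31.2 TPM in NaCl, against 262, 344 and 277 TPM on MS. The groups did not overlap (relative log2 change -1.82 ± 0.41, SE, limma adjusted p = 0.0060), and the TPM call was kept with any one library left out. It was called lower under 6 of the 7 scalings and not with each genome centred on its own median (adjusted p = 0.088). In sos2-2 it was at 60.6, 143 and 91.0 TPM in NaCl and 97.7 and 115 TPM on MS, which overlap. Among the named members ndhJ was at 3171, 3308 and 2403 TPM in NaCl, against 4665, 4701 and 4811 TPM on MS (relative log2 change -0.48 ± 0.20, SE, adjusted p = 0.038), and ndhK at 985, 903 and 707 TPM, against 1307, 1320.1 and 1302 TPM (relative log2 change -0.41 ± 0.19, SE, adjusted p = 0.049). With ATCG00630 left out of the TPM total the adjusted p was 0.13 for ndhJ. Without the second or the third WT NaCl library only 1 ID was called by TPM. Since ATCG01000 kept its call there, the calls of ndhJ and ndhK were lost.

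No plastid ID was called in the genotype by salt contrast, which tests whether the response to salt differed between sos2-2 and WT (limma, 2.04% of all genes called by TPM and 0.749% by share). The same held for the other scalings, with 0.749% of all genes called with TPM centred on the median gene, 0.845% with a common nuclear total, 0.839 and 0.731% with ATCG00630 left out by TPM and by share, and 0.869% with each genome centred on its own median. At an unadjusted p under 0.05 there were 20 IDs by TPM and 29 by share. Without the first WT NaCl library 22 IDs were called by TPM and 23 by share, and without the first sos2-2 NaCl library 2 were called by TPM. The effect of salt is therefore not shown to differ between the genotypes for any member in the full set of libraries.

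Over all members, the genotypes were apart on MS. After each library's log2 shares were centred on their median, the first principal component held 43.9% of the variance and the second 26.7%. Scores on the first were 2.73, 1.10 and 0.957 for sos2-2 in NaCl, 2.52 and 2.62 for sos2-2 on MS, -2.26, -0.161 and 1.17 for WT in NaCl and -2.79, -3.55 and -2.33 for WT on MS. sos2-2 and WT libraries did not overlap on MS, and in NaCl the third WT library lay within the sos2-2 range.

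**Figure D5:**
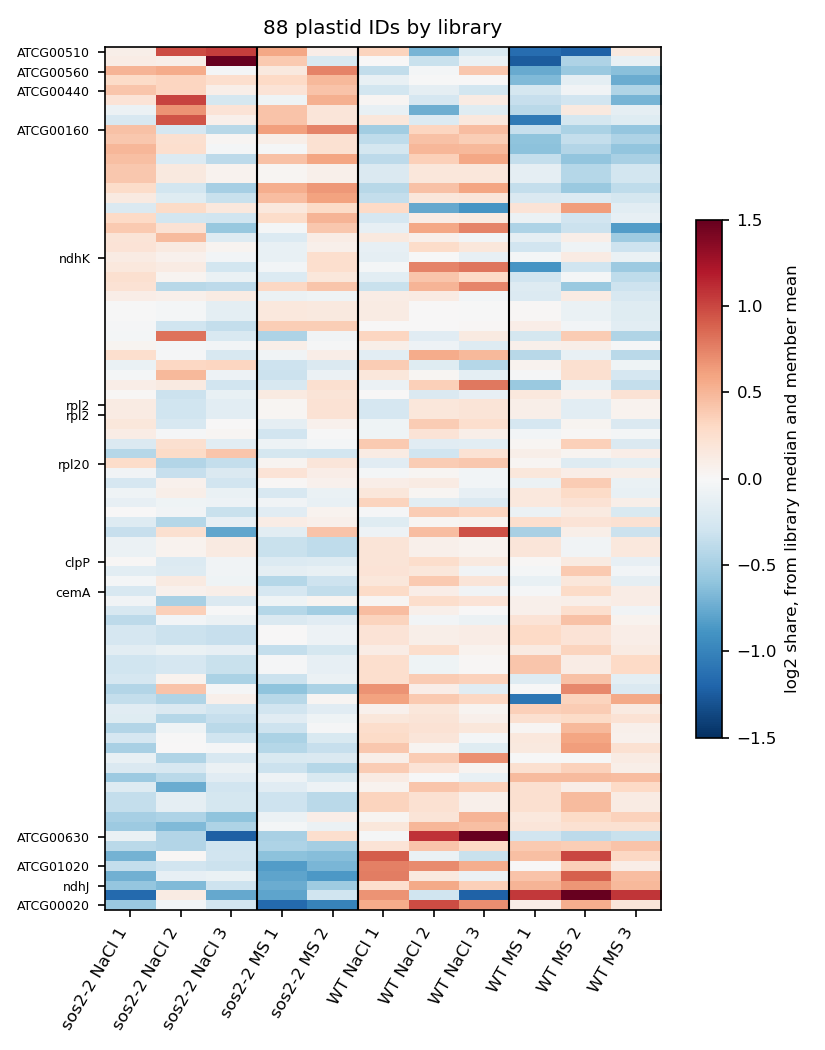
Log2 share of the plastid total of the 88 members (rows), as difference from the library's median and the member's mean, in each library (columns, by group and replicate number); rows are ordered by the mean of the sos2-2 minus the mean of the WT libraries, so the order is a sort and not a finding. ATCG00560 and ATCG00440 stand near the top, ndhJ and ATCG00020 at the bottom, and ATCG00630 is highest in the second and the third WT NaCl libraries.

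A measure taken from the purine content of nuclear genes separated the genotypes on MS but not in NaCl. Whether it is technical was not tested. Across 16368 nuclear genes, the rank correlation of purine content with each gene's deviation in a library was 0.244, -0.144 and 0.027 in sos2-2 in NaCl and 0.190 and 0.254 in sos2-2 on MS. It was -0.314, 0.135 and 0.262 in WT in NaCl and -0.206, -0.352 and -0.073 in WT on MS. The sign thus differed between the genotypes on MS, and the second and the third WT NaCl libraries had the sign of sos2-2 on MS. The same correlation taken with length in place of purine content was -0.165, 0.263 and 0.281 in WT in NaCl. With length it was -0.177, -0.212 and -0.025 in WT on MS. The second and the third WT NaCl libraries thus lay above every other library in it, those of sos2-2 included. Whether the measure taken from length is technical was not tested. The part of either measure in the plastid results was not tested.

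Most green tissue markers were called lower by TPM with salt in WT, and a few markers were called between the genotypes. The summed level of 10 genes known from green tissue, among them RBCS1A and LHCB4.1, was 8928 to 12539 TPM in sos2-2 NaCl, 9407 to 9638 TPM in sos2-2 MS, 6096 to 11259 TPM in WT NaCl and 15569 to 17365 TPM in WT MS libraries. Of these 10 genes, 8 were called lower in NaCl than on MS in WT (9.41% of all genes called) and 0 in sos2-2 (6.59%). None was called in the genotype by salt contrast (2.04% of all genes called), so a different response of the genotypes is not shown. Their median relative log2 change with salt was -0.60 in WT and -0.15 in sos2-2. All calls on the marker lists rest on tests before centring, and no centred test of them is given here. Against WT, LHCB2.1 was higher in sos2-2 in NaCl (1 of 10, against 19.3% of all genes called), and LHCB4.1 and RBCS1A were lower in sos2-2 on MS (2 of 10, against 2.79%, limma on TPM). RBCS1A made up much of the sum on MS, with means of 3532 TPM in sos2-2 and 8180 TPM in WT. The means on MS of LHCB2.1 (434 against 329 TPM in WT) and RCA (322 against 315 TPM) were not lower in sos2-2, while those of the remaining markers were. The summed level of 10 root genes was 543 to 738 TPM in sos2-2 NaCl, 629 to 640 TPM in sos2-2 MS, 693 to 881 TPM in WT NaCl and 645 to 939 TPM in WT MS libraries. Of the 9 tested, 3 were lower with salt in WT (9.41% of all genes called) and 2 higher in sos2-2 than in WT in NaCl (19.3% of all genes called). These 2 were EXPA7 and RCI3, with relative log2 changes of 0.32 and 0.54, while the median over the 9 was -0.33. The root sum was mostly BGLU23, with a mean of 592 of 621 TPM in sos2-2 NaCl and 779 of 803 TPM in WT NaCl. No marker of either list was at 0 in any library. In such bulk samples less green tissue and less RNA per cell cannot be told apart, and the part of tissue makeup in the plastid results was not tested.

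Among nuclear genes that serve plastid transcription and RNA processing, 10 calls were made over the 5 contrasts and 4 lists of 28 genes in all. Salt in WT gave 6 of them (21.4% of the 28, against 9.41% of all genes called), sos2-2 against WT in NaCl 3 (10.7%, against 19.3% of all genes) and on MS 1 (3.57%, against 2.79% of all genes). Of the 6 sigma factors, which direct the plastid-encoded polymerase to promoters, SIG5 was higher in sos2-2 than in WT in NaCl (2.42, 2.61 and 3.19 TPM against 1.65, 1.54 and 1.42 TPM, relative log2 change 0.24 ± 0.16, SE), and none was called in the other contrasts. The limma adjusted p of 0.027 for SIG5 tests its change before centring, in a contrast whose median gene shifted by 0.32. All calls on these 4 lists rest on tests before centring, and no centred test of them is given here. Neither of 2 phage-type polymerases was called in any contrast. Of 12 proteins associated with the plastid-encoded polymerase, PAP4, PAP9 and PAP10 were lower with salt in WT, PAP10 was higher in sos2-2 than in WT in NaCl and PAP2 was higher in sos2-2 than in WT on MS. PAP2 was at 21.8 and 19.5 TPM in sos2-2 on MS, against 11.9, 8.59 and 10.4 TPM in WT (log2 change 0.95 ± 0.25 before centring, SE, limma adjusted p = 0.048). Of 8 genes of plastid RNA processing, CP29A, CP31A and MRL1 were lower with salt in WT, and CP31A, an RNA-binding protein that stabilises plastid messages, was higher in sos2-2 than in WT in NaCl. No gene of these 4 lists was called for salt in sos2-2 or in the genotype by salt contrast. The median relative log2 change with salt in WT was -0.27 over the polymerase-associated proteins and -0.35 over the RNA processing genes, against 0.13 over the sigma factors.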

How the data were processed

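The authors deposited mRNA values as TPM per transcript. kallisto 0.46.2, sleuth 0.30.0 and the build TAIR10 are named in the submitters' processing notes. The role of each, how mRNA was enriched and any use of strand are not given in the sources used here. Over 48359 transcripts each library adds up to 1000000, so the depth is unknown and no counting error can be given. Transcripts were summed to genes, and each of the 88 plastid genes had 1 transcript. limma 3.58.1 (R 4.3.3, with trend) was fitted over all 4 groups to log2(TPM + 1) and to log2(share per 1000000 of the own genome + 1), for the 16564 genes with a mean of at least 1 TPM. On data simulated for salt in WT over 16564 genes, 78 of 100 genes changed by 1 on the log2 scale and 100 of 100 changed by 2 were called, with 15 false calls. The simulation drew independent noise with the spread of the fit itself, without library-wide shifts or the effect of ATCG00630 on the total. It checks that the fit runs as intended and does not give the error rate or power for these libraries. BLAST 2.17.0 and Biopython 1.88 read the reference sequences. The 12 small RNA libraries were not used. Same-numbered libraries were not taken as pairs: no comparison with 3 pairs had every correlation of deviations above 0.1.

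The members and lists were chosen with earlier results of these data known. A grouping of all members by complex, and the naming by symbol that had been laid down for psbA and others, could not be applied, since most ATCG IDs have no symbol in the sources used here. In its place the 7 named members, the 5 highest IDs and up to 2 unnamed IDs in each direction per comparison were described, by size of change or by holding under all scalings, with the neighbours of ATCG00160 as a run; these were chosen after the values were seen. A result on 1 further member is not reported here, and that member stays in all counts.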

Additional observations from a re-analysis of the deposited data

Results flagged for a closer look

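For 2 IDs every NaCl library lay on one side of every MS library in sos2-2 and on the other side in WT, both by TPM and by share. Only plastid IDs were searched for this, so no share over all genes is known. The count is therefore not a result about the plastid set. ATCG00330 was at 3696, 3460.2 and 3086 TPM in NaCl and 4005 and 4088 TPM on MS in sos2-2, against 2414, 3485 and 3058.5 TPM in NaCl and 1642, 2242 and 2179 TPM on MS in WT. Before any centring on the median gene, the log2 ratio of its group means was -0.25 in sos2-2 and 0.56 in WT by TPM, and -0.19 and 0.43 by share. ATCG00720 was at 1734, 1856 and 1917 TPM in NaCl and 1624 and 1479 TPM on MS in sos2-2, against 1478, 1457 and 1070.3 TPM in NaCl and 1501, 1659 and 1550.5 TPM on MS in WT. Its log2 ratio was 0.24 in sos2-2 and -0.23 in WT by TPM, and 0.30 and -0.36 by share. Relative to the median gene, the log2 TPM change with salt was -0.41 in sos2-2 and 0.77 in WT for ATCG00330, and 0.08 in sos2-2 and -0.04 in WT for ATCG00720. With single libraries left out the WT value of ATCG00720 on that scale ranged from -0.12 to 0.06, so by TPM its opposite direction did not hold there. In the fit over all genes the genotype by salt contrast did not pass for either ID (limma adjusted p = 0.14 and 0.27 by TPM, 0.25 and 0.24 by share).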

How the results depend on the processing

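Every alternative left the genotype by salt contrast at 0 except the leaving out of single libraries. Without a filter on low values the counts by TPM were 1 for salt in sos2-2, 3 for salt in WT, 15 for sos2-2 against WT in NaCl and 0 on MS, and by share 2, 8 and 21 for the first 3. A mean of at least 5 TPM gave 21 by TPM for salt in WT. Centring TPM on the median gene gave 21 for salt in sos2-2 and 10 and 23 for sos2-2 against WT in NaCl and on MS. A common nuclear total gave 18 and 4 for salt in sos2-2 and in WT, and 10 and 29 for the genotypes in NaCl and on MS. Leaving ATCG00630 out of the total (chosen after seeing the data) gave by TPM 4 for salt in WT, 11 for the genotypes in NaCl and 24 on MS, and by share 6 and 12 for the first 2 of these. Each genome centred on its own median gave by share 2, 3 and 11 for salt in sos2-2, salt in WT and the genotypes in NaCl. Shares without a trend gave 2 for salt in sos2-2. The replicate block gave 1 by TPM and 2 by share for salt in sos2-2, and moved no other count past 1.5 times. Beyond what the construction of these scalings shows, the causes were not tested.

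With each library left out in turn the TPM counts ranged from 0 to 6 for salt in sos2-2, 1 to 48 for salt in WT, 13 to 51 and 0 to 27 for the genotypes in NaCl and on MS, and 0 to 22 for the genotype by salt contrast. The share counts ranged from 0 to 5, 3 to 55, 15 to 63, 0 to 25 and 0 to 23. The plastid share of all TPM ranged from 66.9 to 68.9% in sos2-2 NaCl, 68.6 to 72.9% in sos2-2 MS, 72.8 to 76.7% in WT NaCl and 66.7 to 69.7% in WT MS. Counted without ATCG00630 in either sum it was 61.9, 61.9, 63.9 and 62.2%.

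Of 4075 values of IDs named in the text under alternatives, 3537 kept direction and side of the threshold, 285 lost the call and 88 gained one. Another 160 changed sign and were called neither in the main fit nor under the alternative. The last 5 reversed, with a change of sign and a call in the main fit, under the alternative or in both. All 5 reversals came with each genome centred on its own median: in WT with salt 0.51 for ATCG01020 and 0.033 for ATCG00440, and between the genotypes in NaCl -0.15 for rpl2 (both IDs) and -0.24 for ATCG00720 (log2 share). The planned total without psbA was not run, since no ID could be matched to psbA. Depth is unknown, so no limit from counting error can be given.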
